A study of Mus musculus with 15 samples.

Results

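The genes described here are a list of 33 collagens and other extracellular matrix genes, with the enzymes that remodel the matrix and a few genes of the mesenchymal cells that make it. A member was taken as measured where a probe set of the array had that gene as its 1 symbol, and where a gene had several, the one with the highest mean value stood for it. This gave 32 members of 18194 genes in all. Fbn1, the microfibril protein fibrillin 1, was not analysed here. Of the 32 members, 22 were over a signal of 20 (4.32 on the log2 scale) on at least 6 arrays and were tested, among 9257 tested genes, and 10 were under this floor.

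Expression was measured on 15 Affymetrix arrays, 1 per mouse, from RNA of scrapings of the opened colon after the mesenteric fat was taken off. The mice were male C57BL/6, 11 weeks old, and ate a diet high in fat (40% of the energy) and low in calcium for 14 days. The 6 control mice had no heme in it, and the 9 heme mice had heme, the iron pigment of red meat, at 0.5 umol per g. Control replicate 5 was not analysed here, and mice are named by their replicate number. The background diet, high in fat and low in calcium, was shared by both groups, so nothing here compares it with another diet. The series title puts the study's question in the turnover of the colon epithelium.

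The extracellular matrix of the gut lies under and between its cells. Fibroblasts of the lamina propria and submucosa and smooth muscle cells secrete fibrillar collagens, which form cables, and collagen VI, which forms beaded filaments around cells. The sheet under the epithelium, around vessels and around muscle fibres is the basement membrane, built of collagen IV and laminin networks that nidogen and perlecan bridge. Metalloproteinases cut matrix proteins and the tissue inhibitors of metalloproteinases (TIMPs) hold them back. A scraping mainly lifts the epithelium, so the matrix-making cells under it can enter a sample in differing amounts, and in such bulk RNA fewer cells of a type and less RNA per cell cannot be told apart.

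Most matrix genes were not called between the diets. Of the 22 tested members, 3 were called (limma, Benjamini-Hochberg adjusted p under 0.05), which is 13.6% beside 53.6% of all tested genes. Nid1, which encodes nidogen 1, was higher in heme mice, and 1 member of 22 in that direction stands beside 27.2% of all tested genes. Timp2, a metalloproteinase inhibitor, and Thbs1, which encodes thrombospondin 1, were lower, 2 of 22 beside 26.4%. The median difference, heme minus control, was -0.03 on the log2 scale over the members and -0.01 over all tested genes. These differences were measured with wide errors. The median standard error was 0.48 for the members and 0.09 for all tested genes, and the 95% interval of 17 of the 19 members that were not called reached a change of 2-fold in at least 1 direction. The missing calls therefore do not show that these genes were alike in both diets. At an unadjusted p under 0.05, limma also gave 3 members. The share of all tested genes at that threshold was not counted. It cannot be under the 53.6% called, since the adjustment never lowers a p.

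One animal lay far from the others. Control mouse 2 had the highest value of all 15 mice in 21 of the 22 tested members, whereas it was the highest control in 18.9% of all tested genes. In Thbs1 it was the lowest control. Its members lay a median of 3.23 above the middle of the other controls, beside -0.04 over all tested genes, and a median of 2.24 above the next control. Dcn, which encodes decorin, showed the widest such gap, 3.18. The mean over the 22 members was 8.81 in control mouse 2, between 5.48 and 6.67 in the other 5 controls and between 5.62 and 7.09 in heme mice. The median SD of the members among controls was 1.38 with this mouse and 0.59 without it, beside 0.57 among heme mice. Among heme mice, mouse 7 was the highest in 11 members and mouse 9 in 10, and mouse 4 was the lowest in 16. The median SE of the members was 0.31 without control mouse 2. The results are therefore given with and without it.

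**Figure D1:**
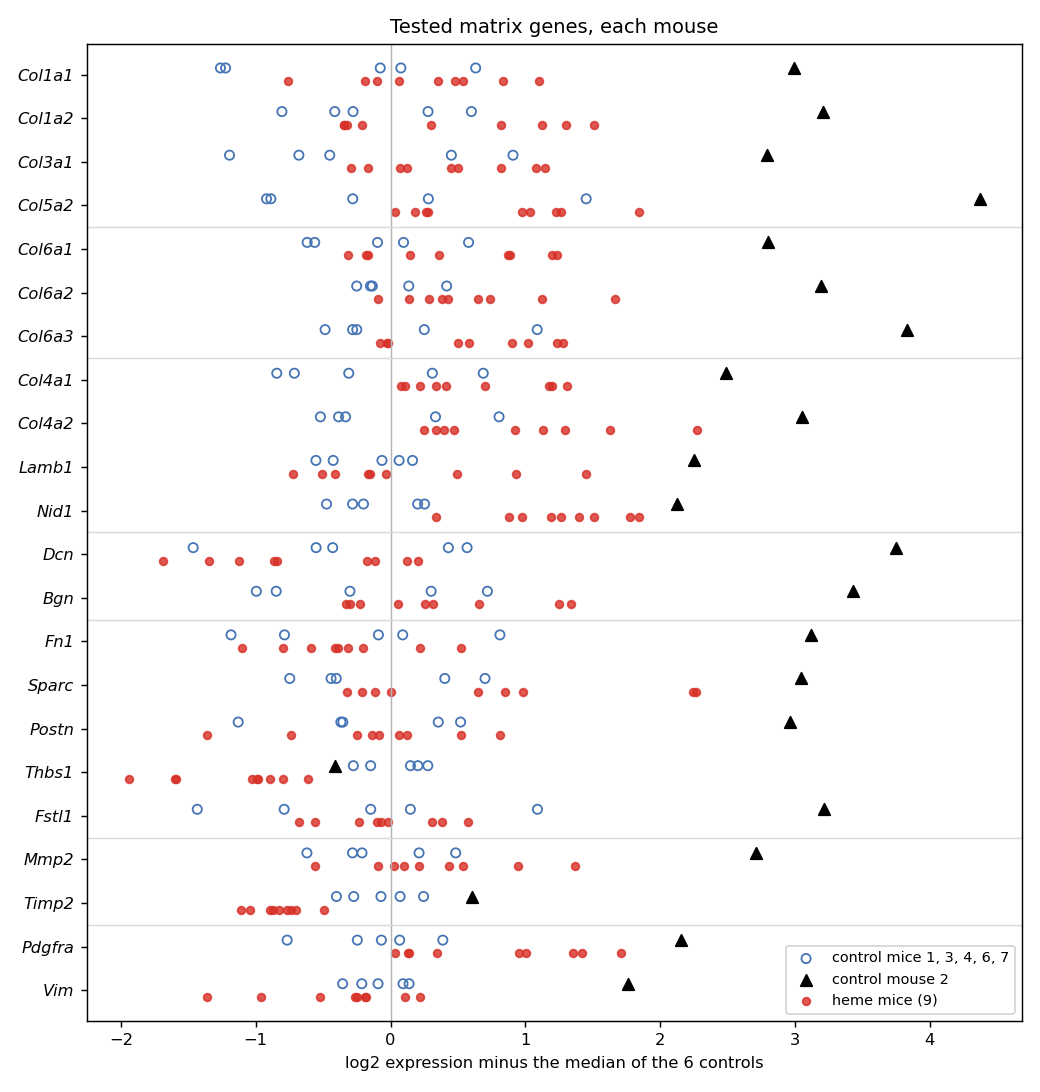
Log2 expression of each of the 22 tested matrix genes in every mouse, with the median of the 6 controls subtracted, where open circles are 5 controls, black triangles control mouse 2 and red points the 9 heme mice. Control mouse 2 lies to the right of all other mice except in Thbs1, and all heme points of Timp2 and Thbs1 lie left of all controls.

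The smooth muscle markers moved with the matrix genes in this mouse. The mean of the 5 tested markers was 9.95 in control mouse 2, between 6.99 and 8.20 in the other controls and between 5.88 and 7.27 in heme mice. Mylk, 1 of the 5, hardly stood out, at 10.73 in control mouse 2 and 10.72 in control mouse 1. All 5 of these markers fell in heme mice, with a median of -2.00, and of -1.44 without control mouse 2, and Myh11, the smooth muscle myosin, had the largest fitted difference, -2.45 ± 0.39 (SE). Under the floor were 3 of 9 heme mice for Myh11 and 6 of 9 for Actg2, a muscle actin whose -2.00 is the median, so the sizes of these falls are set partly against background. Their 10 listed genes summed to a signal of 2191 to 7474 in controls and 1292 to 1942 in heme mice. The fibroblast markers that are not members summed to 1859 in control mouse 2, to 238 to 445 in the other controls and to 232 to 596 in heme mice. Of the 4 that were tested Fap, a fibroblast surface protease, fell by 0.94 ± 0.12 and 3 were not called. Leaving out control mouse 2 took their median from -0.39 to 0.15, and Pdgfrb, a PDGF receptor, went from 0.21 to 0.51 and was called higher (adjusted p = 0.0256, limma). The 10 endothelial, 6 glial or neuronal and 4 mesothelial markers were over the floor on too few arrays to be tested. Of the endothelial markers 6 were under it in every mouse, while Lyve1 was over it in 4 of 6 controls and 1 of 9 heme mice. All 9 epithelial markers were tested, with Epcam at 13.75 ± 0.04 (SD, n = 6) in control and 13.56 ± 0.06 (n = 9) in heme mice. Of these 9, 3 rose and 1 fell, Krt20, a keratin of mature epithelium, most among the rises (0.39 ± 0.05, SE), and Epcam fell by 0.20 ± 0.04. Of 8 leukocyte markers only Ptprc was tested, and it fell by 1.04 ± 0.26, while the other 7 were not tested. Kit, listed for the interstitial cells of Cajal, fell by 1.28 ± 0.18, and control mouse 2 was its lowest control, at 9.10. Cidec, listed for fat cells, rose by 2.86 ± 0.28, with heme mice at 7.52 to 8.34. Adipoq, the other tested fat cell marker, ran from 2.60 to 7.67 in heme mice and was not called (-0.36 ± 0.85). Whether Kit and Cidec followed these cell types here was not tested. Ano1, also listed for the cells of Cajal (-0.17 ± 0.38), and the 1 tested pericyte marker were not called. Further lists were raised in control mouse 2, though most of their genes were not tested. Endothelial markers summed to 263 in it and 74.5 to 101 in the other controls, and pericyte markers to 667 and 69.8 to 201. Leukocyte markers summed to 579 and 190 to 277. The glial or neuronal, mesothelial and Cajal cell sums lay within the other controls, and the fat cell and epithelial sums below them. The 5' minus 3' difference of the Gapdh control probes, a sign of RNA integrity, was -0.03 in control mouse 2 and 0.03 to 0.14 in the other controls. For the actin probes it was -0.66 in that mouse, within the -0.75 to -0.52 of the other controls. The part of these markers in single members was not tested, other than by the smooth muscle covariate described further on.

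**Figure D2:**
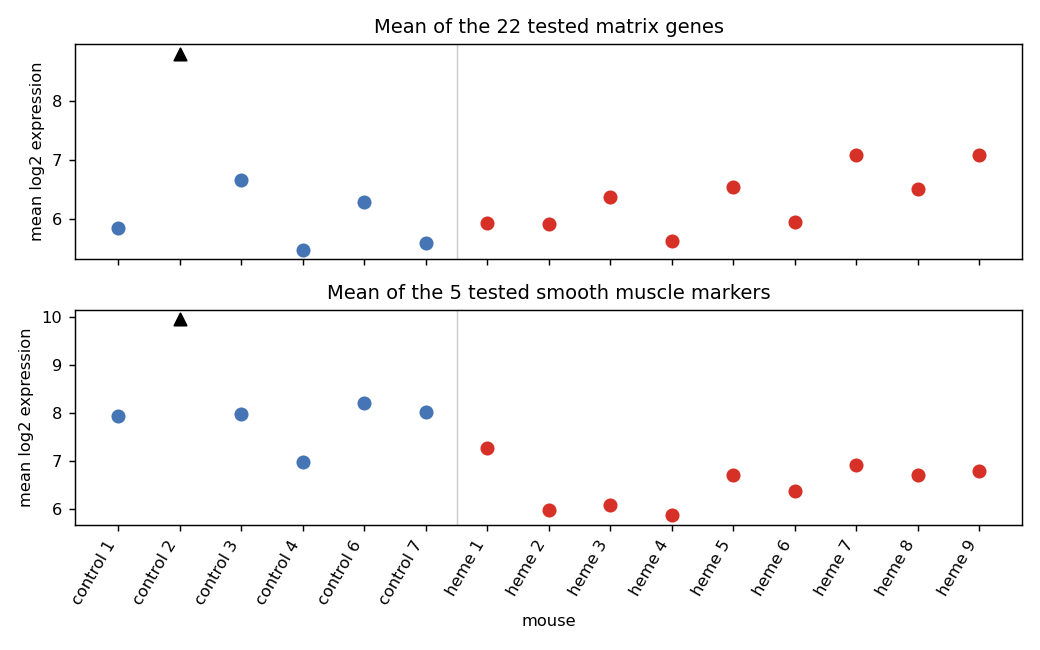
Mean log2 expression in each mouse of the 22 tested matrix genes (upper panel) and of the 5 tested smooth muscle markers (lower panel), with controls in blue, control mouse 2 as a black triangle and heme mice in red. Control mouse 2 is at 8.81 and 9.95, above all others in both panels, while the other controls overlap the heme mice in the upper panel and, in the lower panel, only control mouse 4 at 6.99 lies within the heme range.

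Fibrillar collagens were not called in either direction. The type I chains form the main collagen cable, type III runs beside it in soft tissue, and type V sets the width of the fibril. Col1a1 was at 3.77, 5.03 and 8.03 as lowest, median and highest of the controls, and at 4.27, 5.38 and 6.14 in heme mice. Col3a1 was at 8.24, 9.44 and 12.23 in controls and 9.14, 9.88 and 10.58 in heme mice. The medians were higher in heme mice for both, and the highest mouse was the same control, number 2. The 4 tested fibrillar chains differed by -0.0046 (Col1a2), 0.07 (Col1a1), 0.11 (Col3a1) and 0.12 (Col5a2), with adjusted p from 0.861 to 0.995 (limma). Without control mouse 2 their median difference went from 0.09 to 0.62, and the differences ran from 0.55 (Col1a2) to 0.86 (Col5a2), still with no call. Col5a1 was under the floor in 5 of 6 controls and 8 of 9 heme mice. A second Col1a2 probe set, over the floor in 2 of 6 controls and 4 of 9 heme mice, was at 0.43 ± 0.54 (SE) with all mice.

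No collagen VI chain was called with all mice. Col6a1, Col6a2 and Col6a3 encode the chains that join into one monomer, and they differed by 0.08, 0.06 and -0.09. Col6a2 was at 4.99, 5.24 and 8.43 as lowest, median and highest control and at 5.15, 5.66 and 6.90 in heme mice. The controls other than mouse 2 reached 5.65 at most. Without it Col6a2 was higher in heme mice by 0.59 ± 0.24 (SE, adjusted p = 0.0468, limma), while Col6a1 (0.57 ± 0.29) and Col6a3 (0.54 ± 0.29) were not called. The call for Col6a2 was lost again when control mouse 4 and heme mouse 6 were also left out (0.59, adjusted p = 0.0826, limma). Its probe sets differed in sign in all mice, at 0.06 and -0.01.

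The basement membrane genes held the 1 rise. Nid1 encodes nidogen 1, the linker between laminin and collagen IV. It was at 5.22, 7.54, 5.62, 4.94, 5.67 and 5.14 in control mice 1, 2, 3, 4, 6 and 7. In heme mice 1 to 9 it was at 6.39, 6.29, 6.82, 6.68, 6.93, 5.76, 7.19, 6.61 and 7.26. The groups overlapped through control mouse 2 alone, which was above every heme mouse, while all 9 heme mice were above the other 5 controls. The difference was 0.97 ± 0.34 (SE, 95% interval 0.26 to 1.68, adjusted p = 0.0228, limma), a 1.96-fold rise. Without control mouse 2 it was 1.34 ± 0.22 (adjusted p = 1.33e-04, limma). The call was lost without control mouse 1 (0.88), control mouse 4 (0.82) or control mouse 7 (0.86), each left out singly, where adjusted p was 0.0573 at most (limma). An exact Wilcoxon rank-sum test gave adjusted p = 0.0657.

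The sequence just before the start of Nid1 is shown because Nid1 is the 1 member that rose, and that of Timp2 as a member that fell. Thbs1, the other member that fell, was not matched. Both are the 250 bases before the annotated start in RefSeq (GRCm38.p6), read 5′ to 3′ on the gene's strand, with matches to CCAAT and GGGCGG, or their reverse complements ATTGG and CCGCCC, in capitals. Nid1 lies on the plus strand (chr13:13437352-13437601) and Timp2 on the minus strand (chr11:118355412-118355661).
Nid1: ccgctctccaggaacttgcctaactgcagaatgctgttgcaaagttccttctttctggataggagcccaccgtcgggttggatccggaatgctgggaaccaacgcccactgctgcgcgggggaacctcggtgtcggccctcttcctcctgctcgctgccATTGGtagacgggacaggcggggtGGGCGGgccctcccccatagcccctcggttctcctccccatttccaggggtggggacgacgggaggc
Timp2: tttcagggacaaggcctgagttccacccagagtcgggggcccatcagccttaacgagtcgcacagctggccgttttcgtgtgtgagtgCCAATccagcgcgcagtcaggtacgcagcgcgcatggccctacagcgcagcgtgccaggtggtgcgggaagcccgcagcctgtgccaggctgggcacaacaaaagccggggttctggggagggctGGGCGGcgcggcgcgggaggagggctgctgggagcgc
Both windows held 1 CCAAT and 1 GGGCGG match and no TATAAA, searched on both strands. In Nid1 the CCAAT match was on the opposite strand, 91 bases before the start, and in Timp2 on the same strand, 162 bases before it. Over all 32851 such windows in the table, 33.8% held CCAAT, 12.4% TATAAA and 32.7% GGGCGG. The table had 27 windows for 23 members, and of these 9 held CCAAT, 3 TATAAA and 15 GGGCGG. These are matches of letters only, and they were present in both Nid1, which rose, and Timp2, which fell.

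Col4a1 and Col4a2 encode the chains of the common collagen IV network, and the genes lie head to head. Their annotated starts, capitals in the line that follows, are 21 bases apart on opposite strands (GRCm38.p6, chr8:11312801-11312830, plus strand), with Col4a2 starting at 11312805 on the plus strand and Col4a1 at 11312826 on the minus strand. By these positions each gene runs across the start of the other, so their annotated 5′ ends overlap. The stretch is shown because both genes were called once control mouse 2 was left out.
Col4a1 and Col4a2 starts: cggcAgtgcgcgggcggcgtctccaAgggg
Col4a1 was at 6.26, 7.10 and 9.59 as lowest, median and highest control and at 7.18, 7.51 and 8.41 in heme mice. Col4a2 was at 4.21, 4.73 and 7.78 in controls and at 4.98, 5.65 and 7.00 in heme mice. The groups overlapped in both genes, with control mouse 2 the highest mouse. With all mice neither was called, at 0.34 ± 0.41 for Col4a1 (SE, adjusted p = 0.503, limma) and 0.47 ± 0.48 for Col4a2 (adjusted p = 0.421). Without control mouse 2 both were called, Col4a1 at 0.79 ± 0.28 (adjusted p = 0.0273) and Col4a2 at 0.99 ± 0.33 (adjusted p = 0.0193). The Col4a1 call was lost again when control mouse 4 and heme mouse 6 were also left out (0.69, adjusted p = 0.0771, limma), and when heme mice 7 and 9 were (0.61, adjusted p = 0.0739), while Col4a2 was called in both.

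The other basement membrane genes showed no call. Lamb1, the laminin beta 1 chain, differed by -0.14 ± 0.41 (SE) and by 0.26 ± 0.31 without control mouse 2. Hspg2, which encodes perlecan, was over the floor in 1 of 9 heme mice and in no control. Col15a1 and Col18a1, collagens that tie basement membranes to their surroundings, were under it in every mouse on the probe sets used, with Col18a1 at 2.59 to 4.13 in controls and 2.83 to 4.13 in heme mice. Another Col18a1 probe set was over it in 1 heme mouse. Of the laminin and basement membrane genes outside the list, 5 were tested. Lamb3, a chain of an epithelial laminin, rose by 0.36 ± 0.09, and 3 fell, Lama3, its partner chain, by 0.79 ± 0.16.

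**Figure D3:**
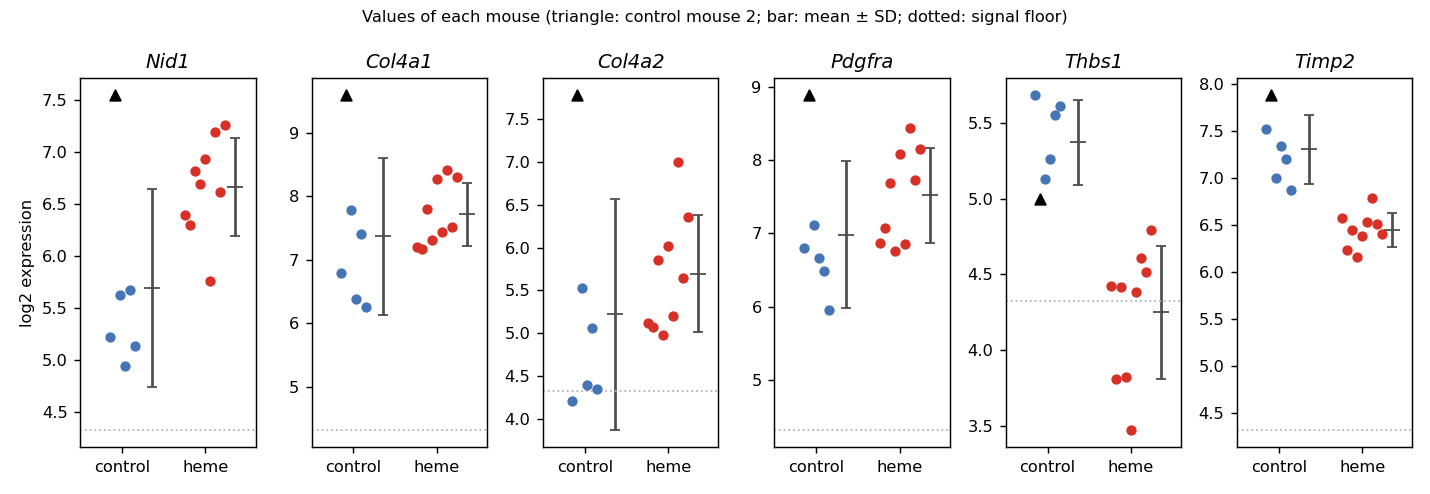
Log2 expression of Nid1, Col4a1, Col4a2, Pdgfra, Thbs1 and Timp2 in each control mouse (blue, with control mouse 2 as a black triangle) and each heme mouse (red), with mean ± SD bars and the signal floor dotted, each panel on its own axis. In Nid1 the triangle at 7.54 is above all heme mice and the other controls below them all, while Timp2 and Thbs1 separate the diets fully.

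Timp2 fell in heme mice. Its product blocks metalloproteinases and also takes part in activating Mmp2 at the cell surface. Timp2 was at 7.52, 7.89, 7.00, 7.35, 7.21 and 6.88 in control mice 1, 2, 3, 4, 6 and 7. In heme mice 1 to 9 it was at 6.58, 6.24, 6.45, 6.17, 6.38, 6.54, 6.79, 6.51 and 6.40. All 9 heme mice were below all 6 controls, and this was so with or without control mouse 2, which was the highest. The fall was 1.81-fold, at -0.86 ± 0.13 (SE, adjusted p = 7.99e-05, limma), and -0.74 ± 0.11 without control mouse 2 (adjusted p = 8.32e-05). All 3 Timp2 probe sets over the floor were lower, from -0.86 to -1.22. Mmp2, the gelatinase A it acts on, was at 3.51, 4.13 and 6.84 as lowest, median and highest control and 3.56, 4.34 and 5.50 in heme mice, and was not called (-0.05 ± 0.42). Timp1 and Timp3 were under the floor in too many mice to be tested. Timp1 was under it in every mouse, and Timp3, the inhibitor that stays bound to matrix, was over it in control mouse 2 only, at 5.82, on the probe set used. Another Timp3 probe set was over it in 2 controls, and none of the 4 was over it in any heme mouse. With no floor both would be called, Timp1 at 0.24 and Timp3 at -0.94 (adjusted p = 0.0196 and 0.0204, limma), which makes 2 members higher and 3 lower of 32, beside 15.9% and 15.2% of all genes and 31.1% in all. Those values compare mostly background.

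Thbs1 also fell. Thrombospondin 1 is a secreted adhesive protein that binds matrix and cells and can activate latent TGF-beta. Thbs1 was at 5.68, 5.00, 5.13, 5.26, 5.56 and 5.61 in control mice 1, 2, 3, 4, 6 and 7. In heme mice 1 to 9 it was at 4.42, 3.81, 4.42, 3.82, 3.47, 4.38, 4.61, 4.52 and 4.80. All 9 heme mice were below all 6 controls, and 3 of the 9 were under the floor, so the size of the fall is set partly against background. The fall was 2.18-fold, at -1.12 ± 0.19 (SE, adjusted p = 1.56e-04, limma), and -1.20 ± 0.20 without control mouse 2. Groups without overlap and lower in heme mice were thus 2 of 22 members, beside 8.93% of all tested genes. Members higher without overlap numbered 0, beside 11.2%, and 1 without control mouse 2 (Nid1), beside 12.6%, while 2 were then lower, beside 12.5%.

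The other adhesive and matricellular members were not called. Fn1, which encodes fibronectin, differed by -0.67 ± 0.49 (SE), and by -0.11 ± 0.30 without control mouse 2. Postn (periostin, a collagen-binding protein of fibroblasts) was at 7.54, 8.67 and 11.63 as lowest, median and highest control and at 7.31, 8.58 and 9.48 in heme mice, and Fstl1, a follistatin-like secreted protein, differed by -0.39 ± 0.51. Without control mouse 2 the differences of Postn and Fstl1 were 0.08 and 0.18. Sparc (osteonectin), which binds collagen, differed by 0.28 ± 0.56, with heme values of 6.63, 7.61 and 9.22.

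Small leucine-rich proteoglycans coat collagen fibrils, and none of the tested ones was called. Decorin (Dcn) was at 5.20, 6.66 and 10.41 as lowest, median and highest control and at 4.97, 5.82 and 6.87 in heme mice. Among not-called members Dcn had the largest difference, -1.03 ± 0.60 (SE, adjusted p = 0.157, limma), which was -0.36 ± 0.37 without control mouse 2. Biglycan (Bgn) was at -0.05 ± 0.54 with all mice and 0.56 ± 0.34 without that one. Lumican (Lum), next to Dcn in the genome, was over the floor in control mouse 2 only, at 7.60, while the other controls reached 3.63 and heme mice 3.02.

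No elastic fibre member was tested. Loxl1, an enzyme that cross-links elastin, was over the floor in control mouse 2 only, at 7.03. Fbln1, which encodes fibulin 1, was over it in 2 of 6 controls, the higher at 7.33 in control mouse 2, and in 2 of 9 heme mice. Mfap5, a microfibril protein, was under the floor in all mice.

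Of the genes of mesenchymal cells, neither was called with all mice. Pdgfra, the PDGF receptor of fibroblasts under the epithelium, was at 5.96, 6.73 and 8.88 as lowest, median and highest control and at 6.76, 7.69 and 8.44 in heme mice. The difference was 0.53 ± 0.39 (SE, adjusted p = 0.257, limma) and, without control mouse 2, 0.91 ± 0.29 (adjusted p = 0.0162). Vim, the intermediate filament vimentin of mesenchymal cells and leukocytes, was at 8.97, 9.33 and 11.09 in controls and at 7.97, 9.08 and 9.55 in heme mice. Its difference was -0.60 ± 0.30 (adjusted p = 0.103), and -0.29 ± 0.22 without control mouse 2. Both mark mesenchymal cells, and their differences lay on opposite sides of 0, and neither had groups without overlap.

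Without control mouse 2 the count of members called higher was 5 of 22 (Nid1, Col4a2, Pdgfra, Col4a1 and Col6a2), beside 26.9% of all tested genes, and 2 were lower (Thbs1 and Timp2), beside 27.3%. In all 7 were called, 31.8% beside 54.2% of all tested genes. The median difference was 0.56 and 17 of 22 were above 0, against -0.03 and 10 of 22 with all mice. Control mouse 2 stood out in these same values and was the highest mouse in 21 of the 22 members. Leaving it out therefore had to raise the difference in those 21, so these shifts are no separate sign of a rise. Control mice 2 and 4 and heme mouse 6 stood apart in earlier results of these data, number 4 with the distal colon gene Hoxb13 at 3.77 where the heme mice were at 10.09 to 11.17. Without these 3, Nid1 (1.36), Pdgfra (1.01) and Col4a2 (0.97) were higher, Thbs1 and Timp2 lower, and the median was 0.44, beside 25.8% of all tested genes higher, 26.1% lower and 51.9% in all. Heme mice 7 and 9 were the highest heme mice in most members. With them and control mouse 2 left out, chosen once these values were known, the same 3 genes were higher (Nid1 1.18, Col4a2 0.71, Pdgfra 0.69) Thbs1 and Timp2 were lower, and the median was 0.35 over 21 tested members. Beside these stood 26.3% of all tested genes higher, 26.4% lower and 52.8% in all. Both of these sets also leave out control mouse 2, so their rises are no separate sign either. With control mouse 2 kept and any other mouse left out singly, adjusted p (limma) was at least 0.359 for Col4a2 and 0.194 for Pdgfra. For Nid1 it then ran from 0.0121 to 0.0573.

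**Figure D4:**
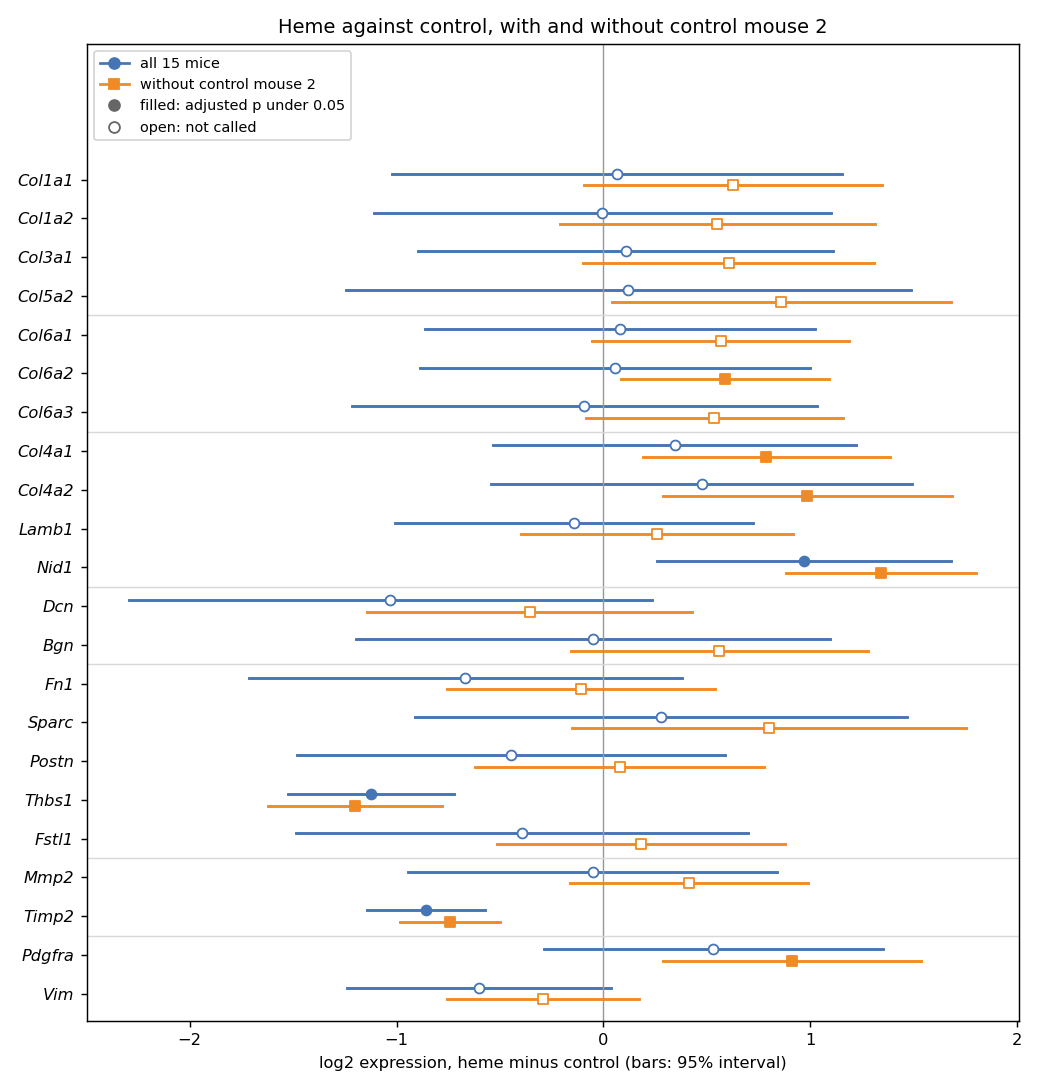
Difference in log2 expression, heme minus control, of each of the 22 tested matrix genes with its 95% interval, with all 15 mice (blue circles) and without control mouse 2 (orange squares), filled where the adjusted p (limma) was under 0.05. Filled symbols number 3 with all mice and 7 without control mouse 2, and the intervals of most members are narrower without it.

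With the mean of the 5 tested smooth muscle markers as a covariate, 18 of 22 members were called higher and 1 lower, with a median of 1.77, beside 18% of all tested genes higher, 17.9% lower and 35.8% in all. Nid1 was then at 2.21 ± 0.36 (SE) and Col4a2 at 2.26 ± 0.51. Thbs1 remained lower (-1.09 ± 0.31, adjusted p = 0.0137, limma), while Timp2 was no longer called (-0.46 ± 0.17, adjusted p = 0.0508). This covariate itself differed between the diets, with control mouse 4 the only control within the heme range, so the diet and the covariate cannot be fully told apart in that fit. Control mouse 2 was also far out in both the covariate (9.95) and the member mean (8.81), so it can weigh heavily on the slope. The covariate was not fitted without that mouse, and the count of 18 is to be read with these limits.

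Outside the list, 103 other matrix genes were counted, of which 97 had a probe set and 40 were tested. Among these 3 were higher, 18 lower and 19 not called, and the median was -0.26. The share called was 52.5%, beside 53.6% of all tested genes, of which 27.2% were higher and 26.4% lower, and the small counts by list are to be read against these shares. The higher calls numbered 6 and the lower 18 without control mouse 2. Of 3 tested other collagens 2 fell, Col8a1, a short-chain collagen, by 2.44 ± 0.31 (SE), with 7 of 9 heme mice under the floor. Of 7 proteoglycans and matricellular genes 4 fell, most of all Tgfbi, a TGF-beta induced adhesion protein (-1.88 ± 0.20). All 6 tested TGF-beta and PDGF signalling genes fell, the PDGF ligand Pdgfc most (-0.95 ± 0.22). Of 10 matrix receptors 2 rose, the integrin chain Itgav most (0.51 ± 0.09), 2 fell, Itgb5 most (-0.36 ± 0.09), and 6 were not called. Of 6 collagen-making enzymes only Crtap, a collagen prolyl hydroxylase partner, was called (-0.23 ± 0.08), at -0.17 and not called without control mouse 2. Dropping control mouse 1 or 6, or heme mouse 1 or 6, also ended that call. With the smooth muscle covariate the calls of Itgb5 (-0.36), Lamb3 (0.22), Crtap (-0.09) and Ptprc (-0.11) were lost. Mmp14, the 1 tested protease (0.20 ± 0.19), and both tested elastic fibre genes were not called.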

How the data were processed

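Expression was measured in colon scrapings with 1 array per mouse. The authors deposited log2 expression per probe set, made with GCRMA 2.22.0 per the submitters' processing notes, with no other step given in the sources used here. GCRMA corrects background from probe sequence and normalizes between arrays, so values near the floor carry little information, and probe sets are not comparable with each other in level. Of 45101 probe sets, 34958 had 1 symbol, 932 several and 9211 none listed. Array medians ran from 3.11 to 3.24, and the number of arrays limits the precision.

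Genes over a signal of 20 on at least 6 arrays were fitted with limma 3.58.1 (lmFit and eBayes, R 4.3.3), with Benjamini-Hochberg adjustment over all 9257 and a threshold of 0.05. The fit was also run on simulated data with separate noise for each gene and mouse. Those data hold no outlying mouse and no shift shared by genes, so they do not bear on the member results here. Differences are heme minus control, with SE, and mice were separate animals. All members were named, and from each other list the called genes with the largest rise and fall. The members and lists were chosen with earlier results of these data known. Promoters came from RefSeq (GRCm38.p6).

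Alternatives were no filter, a floor of 100, averaged probe sets, an exact Wilcoxon test, array weights, quantile normalization, median centring, a robust variance trend, a block on the replicate number, array number or smooth muscle as a covariate, and leaving out mice. Leaving out control mouse 2 with heme mice 7 and 9 was chosen after seeing the data. Each mouse was left out singly, but the weight given to the fit without control mouse 2 rests on the member values themselves.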

Additional observations from a re-analysis of the deposited data

Results flagged for a closer look

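A single mouse stood far from the rest of its diet group, by Dixon's test at 95%, in 14 of 74 groups examined (22 members and 15 other named genes, each diet apart), where chance alone marks about 5% of groups. All 9 of the members concerned did so through control mouse 2. Its values were 9.55 for Col1a2, 9.54 for Col6a1, 8.43 for Col6a2, 8.01 for Col6a3, 7.78 for Col4a2, 7.76 for Lamb1, 7.54 for Nid1, 6.84 for Mmp2 and 11.09 for Vim, each the highest control. The gap to the next control was widest relative to the group's range in Col6a2. The members share this mouse, so these are not independent signs. Outside the members, control mouse 2 stood apart in Itgav (9.67, the highest control), Kit (9.10, the lowest) and Ptprc (8.63, the highest). Heme mouse 9 was apart in Ptprc (7.60) and heme mouse 5 in Cidec (7.52).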

How the results depend on the processing

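Timp2 and Thbs1 were lower in all fits that tested them, and Timp2 was not called only with the smooth muscle covariate (-0.46). Nid1 kept its sign in every fit that tested it, but was not called by the exact Wilcoxon test, with the replicate block or without control mouse 1, 4 or 7. With probe sets averaged, 14 members were tested and Nid1 and Thbs1 were not among them. Members higher (1 in all mice) numbered 2 without a filter, 0 with averaged probe sets, 0 by the exact Wilcoxon test, 18 with the smooth muscle covariate, 3 without the 3 mice that stand apart, 3 without the 3 highest, and 0 to 5 with each mouse left out. Members lower (2) numbered 1 at a floor of 100, 1 with averaged probe sets, 1 with the covariate, and 2 to 2 with each mouse left out. At a floor of 100 only 10 members were tested. Of all tested genes 52.5% were called with averaged probe sets, 51.2% by Wilcoxon and 57.5% at a floor of 100. Without a filter this share was 31.1%, with the covariate 35.8%, and with each mouse left out 49.4% to 54.2%. The member median (-0.03) was 1.77 with the covariate and -0.24 to 0.56 with each mouse left out. Other matrix genes higher (3) numbered 6 without a filter, 5 with median centring, 5 with trend and robust variance, 6 with array weights, 5 by Wilcoxon, 9 with the covariate, 6 without the 3 apart, 6 without the 3 highest and 3 to 6 with each mouse left out, and lower (18) 9 with the covariate and 17 to 20. Cell type markers higher (4) numbered 8 with the covariate and 4 to 5, and lower (9) 15 without a filter, 5 at a floor of 100, 5 with the covariate and 9 to 10.

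Replicate numbers did not pair the mice: same-numbered deviations correlated at 0.20, -0.10, -0.15, -0.10, 0.10 and -0.19 for replicates 1, 2, 3, 4, 6 and 7, and 1 of them was best with its own number. With the replicate number as a block, 0 members were higher and 2 lower, Nid1 was at 0.83 (adjusted p = 0.136, limma), cell type markers higher numbered 2, and 42.8% of all tested genes were called. Heme mice 5, 8 and 9 had no control of the same number, so they did not enter the difference in that fit. Signs turned with the block in Col1a1 (-0.13), Col3a1 (-0.085), Col5a2 (-0.063), Col6a1 (-0.10), Col6a2 (-0.16) and Sparc (-0.053), none called. These turned signs come from a smaller set of heme mice and are not to be read as an effect of pairing.

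Other differences that changed sign were uncalled with all mice. With the smooth muscle covariate Col1a2 was 1.93, Col6a3 1.88, Lamb1 1.20, Dcn 1.61, Bgn 2.06, Fn1 1.32, Postn 1.70, Fstl1 1.73, Mmp2 1.58 and Vim 0.61. With array weights Col1a2 was 0.18, Col6a3 0.20, Lamb1 0.047, Bgn 0.14 and Mmp2 0.12. Col1a2 was 0.028 with median centring and 0.013 with quantile normalization. Without the 3 apart Col1a2 was 0.57, Col6a3 0.54, Lamb1 0.35, Bgn 0.44 and Mmp2 0.41, and without the 3 highest Col1a2 0.27, Col6a3 0.35, Bgn 0.29 and Fstl1 0.071. With each mouse left out the ranges were -0.22 to 0.63 (Col1a1), -0.25 to 0.55 (Col1a2), -0.19 to 0.61 (Col3a1), -0.20 to 0.86 (Col5a2), -0.12 to 0.57 (Col6a1), -0.10 to 0.59 (Col6a2), -0.33 to 0.54 (Col6a3), -0.31 to 0.26 (Lamb1), -0.32 to 0.56 (Bgn), -0.74 to 0.079 (Postn), -0.75 to 0.18 (Fstl1) and -0.25 to 0.41 (Mmp2). The cause of these changes was not tested.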
